A study of Homo sapiens with 6 samples.

Results

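The 10 genes described here supply cysteine and make, break down and use glutathione. They were chosen by name, as the genes CBS, CTH, SLC7A11, CHAC1, CHAC2, GCLC, GCLM, GSS, GSR and GPX4, and each had 1 row among the 25737 rows of the deposited count table. The choice was made with earlier results of these data known. Transcripts were counted in U87MG cells, a human glioblastoma line derived from 1 tumour, kept for 24 h in DMEM lacking serine and glycine (deprived, 3 libraries) or in complete DMEM containing both (complete, 3 libraries). All cells had been maintained beforehand with 10% fetal bovine serum, and the labels name no genetic change in either group. The kit reads 3′ ends of polyadenylated RNA, so a count stands for a transcript end and does not grow with transcript length.

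Cysteine is the scarce building block of glutathione, the tripeptide of glutamate, cysteine and glycine that buffers the redox state of the cell. It is imported as cystine by the exchanger system xc-, or made by transsulfuration, in which the sulfur of homocysteine is passed to the carbon skeleton of serine. Serine and glycine therefore enter this pathway at separate steps, serine through cystathionine and glycine as the last residue of glutathione. Several of its genes are known targets of ATF4, the transcription factor of the amino acid response, or of NRF2 (gene NFE2L2), the transcription factor of the antioxidant response.

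Libraries did not group by their labels. The chi-square statistic per gene between libraries was 2.41 to 3.29 for pairs among deprived 1, deprived 3 and complete 1, and 2.58 to 2.98 for pairs among the other 3 libraries. It was 12.3 to 15.5 for every pair that took 1 library from each of these sets, so deprived 2 and complete 1 each resembled the opposite label more than their own. Totals were 7001929, 7066236 and 7102846 counts in deprived 1, 2 and 3, against 6249706, 7247995 and 6708761 in complete 1, 2 and 3. Names such as deprived 2 mean the library with that label throughout, and results are given with and without deprived 2 and complete 1. The 10 astrocyte and glioma markers summed to 5705, 7707 and 5998 CPM in deprived 1, 2 and 3, against 6079, 7636 and 7839 CPM in complete 1, 2 and 3, lower in deprived 1, deprived 3 and complete 1 than in the rest. VIM dominated each sum, with 5090, 6818 and 5380 CPM in the deprived and 5461, 6694 and 6939 CPM in the complete libraries. CD44 differed in the same way, with 540, 804 and 539 CPM in the deprived and 544, 859 and 801 CPM in the complete libraries. NES had this order too. SLC1A3 lacked this order, with 25.4, 19.95 and 22.7 CPM in the deprived and 24.3, 20.8 and 25.9 CPM in the complete libraries. OLIG2 was highest in complete 1, at 6.88 CPM, and lowest in complete 2, at 1.52 CPM. The part of these markers in the results was not tested. Of them, VIM, CD44, NES and SLC1A3 were at 19.95 CPM (counts scaled to library size) or more in each library, whereas S100B, AQP4 and ALDH1L1 had 0 counts and GFAP reached at most 0.894 CPM. The labels also call the cells epithelial, but no read fell on CDH1 or KRT5 in the 6 libraries, a result that permits at most 0.480 CPM of each. EPCAM, the other gene of that list, was detected in all libraries, at 0.708 to 0.857 CPM in the deprived and 0.800 to 1.66 CPM in the complete ones. Since the labels do not say that libraries came from separate cultures, p-values here reflect variation among libraries that could be wholly technical.

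By label, no member of the pathway was called. CBS, CTH and SLC7A11, which act in cysteine supply, and CHAC1, which cleaves glutathione, were 8.03 to 21.4 times as high in their highest library as in their lowest. Their high libraries carried both labels. CHAC2, which also cleaves glutathione, stayed within 1.14 to 1.51 times together with GCLM and GSS, and GCLC, GSR and GPX4 within 1.47 to 1.98 times. Among the 9573 tested genes with a mean of at least 10 CPM the median of this ratio was 1.32. In 8 of them, or 0.0836%, it was as large as in CHAC1, and these 8 include CBS, CTH, SLC7A11 and CHAC1 themselves. With edgeR (quasi-likelihood, Benjamini-Hochberg adjusted over all genes) 0 of 10 members and 0% of the 13068 genes tested passed an adjusted p of 0.05. At an unadjusted p under 0.05 edgeR gave 247 genes and 0 members, DESeq2 called 0 genes with 122 unadjusted, and limma-voom called 0 with 251. The median log2 fold change (deprived over complete) was 0.12 over the 10 members (-0.02, without complete 3, to 0.36, without complete 1) and 0.0033 over all genes tested. In these bulk samples, fewer cells of a kind and less RNA per cell cannot be told apart.

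**Figure D1:**
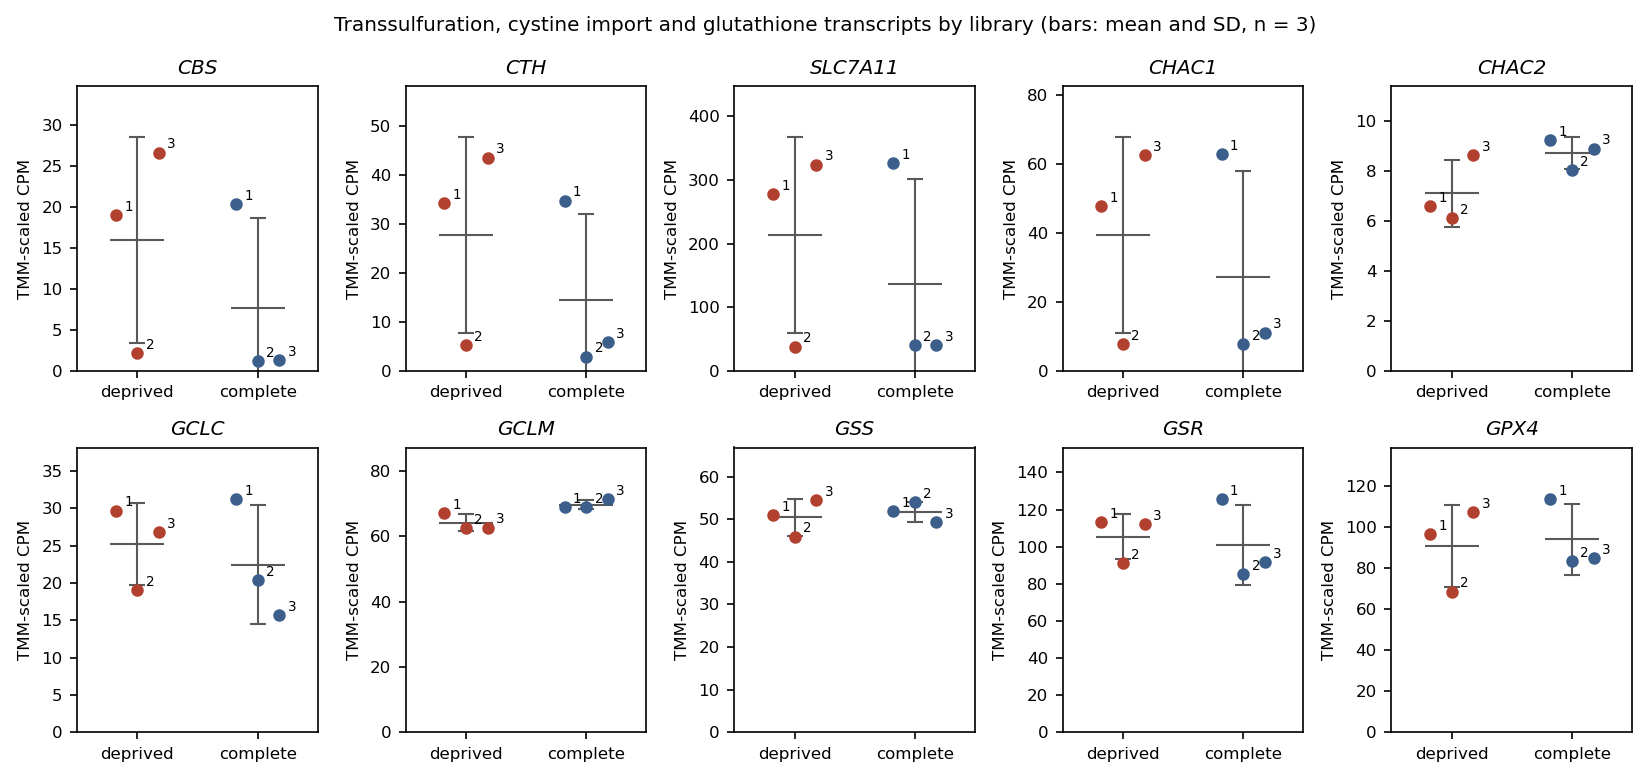
TMM-scaled CPM of each of the 10 genes in each library (points, numbered as labelled), with deprived libraries on the left and complete libraries on the right of each panel; horizontal and vertical bars are the mean and SD (n = 3), cut at 0 where the SD reaches below it. CBS, CTH, SLC7A11 and CHAC1 are high in deprived 1, deprived 3 and complete 1 and low in the other 3 libraries, while GCLM and GSS differ little.

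Transsulfuration runs through CBS, which joins serine and homocysteine to cystathionine, and CTH, which cleaves cystathionine to cysteine. CBS measured 19.1, 2.13 and 26.7 CPM in deprived 1, 2 and 3, against 20.4, 1.25 and 1.34 CPM in complete 1, 2 and 3. CTH measured 34.3, 5.26 and 43.5 CPM in deprived 1, 2 and 3, against 34.8, 2.91 and 5.94 CPM in complete 1, 2 and 3. For both genes deprived 1, deprived 3 and complete 1 were high and the other 3 libraries low, so the labels overlapped. CBS rested on 9 counts in complete 2 and in complete 3, and the exact 95% Poisson interval of its complete 2 value ran from 0.570 to 2.37 CPM, counting error only. Without its high libraries CBS would lie near the low count filter, which it passed through them.

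By label, CBS averaged 16.0 ± 12.6 CPM in deprived and 7.66 ± 11.04 CPM in complete medium (SD, n = 3 each). The log2 fold change of CBS was 1.09 ± 0.99 (SE) and that of CTH 0.95 ± 0.85 (SE), each with an edgeR adjusted p of 0.999. Leaving out complete 1 gave the largest values, 3.61 for CBS and 2.65 for CTH, and the smallest were 0.50 for CBS, without deprived 3, and 0.45 for CTH, without complete 2. Without deprived 2 and complete 1 together, the log2 fold change was 4.13 ± 0.30 (SE) for CBS and 3.15 ± 0.22 (SE) for CTH, with edgeR adjusted p of 1.79e-12 and 7.21e-13. These libraries were left out because of their values, so such figures are no independent test of the medium. The GRCh38 reference carries a near-identical copy of CBS, named CBSL, which has no row in the count table. How reads common to both were counted is not given in the sources used here, so the CBS counts are uncertain.

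SLC7A11 is the light chain of system xc-, which takes up cystine in exchange for glutamate, and SLC3A2 is the heavy chain that carries it to the membrane. SLC7A11 measured 278, 38.1 and 324 CPM in deprived 1, 2 and 3, against 327, 41.0 and 40.4 CPM in complete 1, 2 and 3. The highest library of all carried the complete label, and deprived 2 was the lowest. SLC3A2 was high in the same 3 libraries over a narrower range, with 228, 82.0 and 260 CPM in deprived 1, 2 and 3, against 236, 83.1 and 89.6 CPM in complete 1, 2 and 3. The log2 fold change by label was 0.65 with a standard error of 0.88 for SLC7A11 and 0.48 with a standard error of 0.47 for SLC3A2. For SLC7A11 it lay between 0.21, without complete 2, and 2.39, without complete 1. It was 2.89 ± 0.09 (SE) without deprived 2 and complete 1, with an edgeR adjusted p of 6.02e-22, against 1.498 ± 0.083 (SE) for SLC3A2.

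The antisense gene SLC7A11-AS1, which overlaps SLC7A11 on the opposite strand in the GENCODE annotation, had counts that followed those of SLC7A11. It measured 24.1, 2.70 and 26.8 CPM in deprived 1, 2 and 3, against 28.7, 3.18 and 4.46 CPM in complete 1, 2 and 3. That was 8.68%, 7.09% and 8.27% of the SLC7A11 value in the deprived libraries and 8.78%, 7.77% and 11.03% in the complete libraries, the last resting on 30 counts. The strand setting of the counting is not given in the sources used here, so it is not known whether reads of these 2 genes were kept apart.

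CHAC1 and CHAC2 are cytosolic gamma-glutamylcyclotransferases that cleave glutathione, CHAC1 being the form induced by ATF4 under stress and CHAC2 the form present in unstressed cells. CHAC1 measured 47.9, 7.82 and 62.5 CPM in deprived 1, 2 and 3, against 62.8, 7.89 and 11.1 CPM in complete 1, 2 and 3. CHAC2 measured 6.60, 6.11 and 8.65 CPM in deprived 1, 2 and 3, against 9.25, 8.03 and 8.91 CPM in complete 1, 2 and 3. CHAC1 thus separated the same libraries as SLC7A11, while CHAC2 was low in deprived 1 and deprived 2 and similar in the rest. CHAC2 rested on 43 to 61 counts per library, and its Poisson interval in deprived 2, 4.42 to 8.23 CPM, reached the complete 2 value. The log2 fold change by label was 0.55 with a standard error of 0.80 for CHAC1 and -0.29 with a standard error of 0.21 for CHAC2. With 1 library left out, CHAC1 lay between 0.04, without deprived 3, and 2.05, without complete 1, and CHAC2 between -0.46 and -0.19. In the fit lacking deprived 2 and complete 1, CHAC1 had 2.54 ± 0.17 (SE) and an edgeR adjusted p of 2.29e-13, and CHAC2 -0.15 ± 0.26 (SE) and 0.778.

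The windows before the starts of CHAC1, CHAC2 and CTH are shown because CHAC1 and CHAC2 share an activity but not a pattern, while CHAC1 and CTH share a pattern. Each runs from 250 bases before to 50 bases after the start in RefSeq, build GRCh38.p14, written 5′ to 3′ on the gene's strand. CHAC1 lies at chr15:40953221-40953520 (plus strand), CHAC2 at chr2:53767533-53767832 (plus strand) and CTH at chr1:70411018-70411317 (plus strand). Capitals mark the letters TGATGNAA, the core of the amino acid response element bound by ATF4, read on both strands.
CHAC1: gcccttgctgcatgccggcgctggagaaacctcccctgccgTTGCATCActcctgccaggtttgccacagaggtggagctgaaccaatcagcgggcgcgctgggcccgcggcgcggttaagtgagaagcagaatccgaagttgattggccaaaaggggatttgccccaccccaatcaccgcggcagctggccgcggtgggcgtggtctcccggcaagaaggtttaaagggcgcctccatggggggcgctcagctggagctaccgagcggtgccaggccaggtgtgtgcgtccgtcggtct
CHAC2: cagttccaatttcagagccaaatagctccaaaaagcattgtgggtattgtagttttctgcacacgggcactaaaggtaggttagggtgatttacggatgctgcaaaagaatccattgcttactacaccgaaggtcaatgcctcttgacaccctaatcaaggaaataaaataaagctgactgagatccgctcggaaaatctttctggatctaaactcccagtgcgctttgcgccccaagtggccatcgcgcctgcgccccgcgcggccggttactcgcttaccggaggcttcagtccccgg
CTH: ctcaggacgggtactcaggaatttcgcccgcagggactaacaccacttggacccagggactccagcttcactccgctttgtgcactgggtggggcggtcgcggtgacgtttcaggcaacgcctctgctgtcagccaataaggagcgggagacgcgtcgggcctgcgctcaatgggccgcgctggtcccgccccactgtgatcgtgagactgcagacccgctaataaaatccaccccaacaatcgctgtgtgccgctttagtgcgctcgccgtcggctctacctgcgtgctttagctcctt
CHAC1 held 1 match, on the minus strand at -209 to -202 counted from the first transcribed base as 0, where 3.62% of the 35116 RefSeq windows hold at least 1. No match lay in the windows of CHAC2, CTH, CBS, GCLC, GCLM or GPX4, which says only that these letters are not in these windows. RefSeq windows were used for 7 of the 10 members. SLC7A11, GSS and GSR had none among the windows used and are only named, which does not mean that RefSeq holds none.

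Glutathione is made in 2 steps, by glutamate-cysteine ligase, whose catalytic subunit is GCLC and whose modifier subunit is GCLM, and by glutathione synthetase, GSS. GCLC measured 29.7, 19.0 and 26.8 CPM in deprived 1, 2 and 3, against 31.2, 20.4 and 15.7 CPM in complete 1, 2 and 3. GCLM measured 67.1, 62.5 and 62.7 CPM in deprived 1, 2 and 3, against 68.9, 68.8 and 71.4 CPM in complete 1, 2 and 3. GSS measured 51.0, 45.9 and 54.4 CPM in deprived 1, 2 and 3, against 52.0, 54.0 and 49.3 CPM in complete 1, 2 and 3. GCLC was high in the same libraries as SLC7A11, over a smaller range, and GSS overlapped between the labels with no such order.

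GCLM was the 1 member whose labels did not overlap, each deprived library lying below each complete one, as did 3.49% of all genes tested. No member had its deprived libraries above all its complete ones, against 3.48% of all genes. GCLM averaged 64.1 ± 2.60 CPM in deprived and 69.7 ± 1.498 CPM in complete medium (SD, n = 3 each), with a log2 fold change of -0.12 ± 0.08 (SE) and an edgeR adjusted p of 0.999. Its value lay between -0.16 and -0.10 with 1 library left out and was -0.11 ± 0.10 (SE) without deprived 2 and complete 1. Within each label its coefficient of variation, 4.05% in deprived and 2.15% in complete libraries, was below the 4.71% and 4.61% that counting error alone gives.

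By label GCLC had a log2 fold change of 0.17 ± 0.25 (SE) and GSS one of -0.04 ± 0.10 (SE). GCLC ran from -0.03, without complete 3, to 0.48, without complete 1. It reached 0.64 ± 0.16 (SE) without deprived 2 and complete 1 together, with an edgeR adjusted p of 0.00537. GSS ran from -0.09, without deprived 3, to 0.03, without deprived 2, and stood at 0.03 ± 0.11 (SE) without both.

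The windows of GCLM and GCLC are shown because these genes encode the subunits of 1 enzyme and differed in pattern. GCLM lies at chr1:93909381-93909680 (minus strand) and GCLC at chr6:53545052-53545351 (minus strand), in the same build and orientation as above. Capitals mark TGACNNNGC, the core of the antioxidant response element bound by NRF2, read on both strands.
GCLM: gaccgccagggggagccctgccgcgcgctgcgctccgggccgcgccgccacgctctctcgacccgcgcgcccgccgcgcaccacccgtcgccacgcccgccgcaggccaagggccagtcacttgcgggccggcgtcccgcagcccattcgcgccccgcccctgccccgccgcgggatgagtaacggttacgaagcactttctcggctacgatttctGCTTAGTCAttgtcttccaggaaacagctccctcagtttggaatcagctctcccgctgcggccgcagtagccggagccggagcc
GCLC: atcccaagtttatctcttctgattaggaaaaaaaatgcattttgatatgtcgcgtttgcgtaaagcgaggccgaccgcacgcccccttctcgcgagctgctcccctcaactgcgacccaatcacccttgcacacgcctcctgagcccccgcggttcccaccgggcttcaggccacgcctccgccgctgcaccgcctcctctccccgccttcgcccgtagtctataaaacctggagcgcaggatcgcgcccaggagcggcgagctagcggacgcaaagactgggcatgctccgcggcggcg
GCLM held 1 match, at -34 to -26, and GCLC none, against 13.3% of all RefSeq windows with at least 1. A window without a match says nothing about bases outside it. Of the other members with a window, CBS held 1 match in 1 of its 3 windows, at -83 to -75, and CHAC1, CHAC2, CTH and GPX4 held none. The amino acid response letters and these letters did not overlap in any member's window, since no window held both.

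GSR, glutathione reductase, returns oxidized glutathione to its reduced form with NADPH, and GPX4 is the selenoprotein that uses glutathione to reduce lipid peroxides in membranes. GSR measured 113, 91.3 and 112 CPM in deprived 1, 2 and 3, against 126, 85.4 and 91.9 CPM in complete 1, 2 and 3. GPX4 measured 96.8, 68.7 and 107 CPM in deprived 1, 2 and 3, against 114, 83.5 and 84.8 CPM in complete 1, 2 and 3. Both were highest in complete 1 and lowest in a library of either label, complete 2 for GSR and deprived 2 for GPX4. By label GSR had a log2 fold change of 0.06 ± 0.15 (SE) and GPX4 one of -0.05 ± 0.18 (SE). With 1 library left out GSR ran from -0.05, without complete 2, to 0.25, without complete 1, and GPX4 from -0.18, without deprived 3, to 0.12, without deprived 2. After both libraries were left out, GSR had 0.35 ± 0.09 (SE) with an edgeR adjusted p of 0.00478, and GPX4 0.28 ± 0.09 (SE) with 0.0309.

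**Figure D2:**
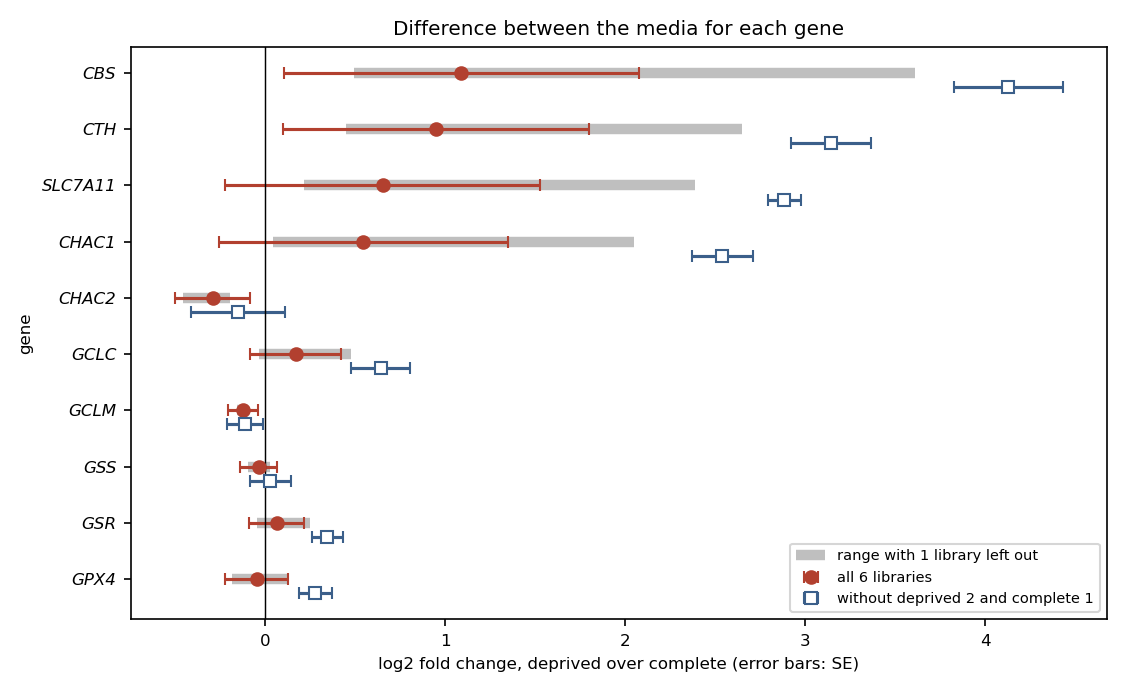
Log2 fold change of deprived over complete medium for each gene, from all 6 libraries (filled circles, bars are the SE) and without deprived 2 and complete 1 (open squares, bars are the SE), with the range over single libraries left out in grey. The 4 genes from CBS to CHAC1 lie between 0.55 and 1.09 with all libraries and between 2.54 and 4.13 without those 2, while CHAC2, GCLM and GSS lie between -0.29 and 0.03 in both.

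Of the members, 7 had their 3 highest values in deprived 1, deprived 3 and complete 1, against 18.3% of all genes tested, and 0 had their 3 lowest there, against 17.7%. These were CBS, CTH, SLC7A11, CHAC1, GCLC, GSR and GPX4, and the set of libraries was singled out after its values were seen. The members too were chosen with earlier results of these data known, so the count does not test them against all genes. The same 7 members passed the edgeR test without deprived 2 and complete 1, all higher in deprived medium, against 8.57% of 13145 genes that passed as higher. That fit compared deprived 1 and deprived 3 with complete 2 and complete 3, which the order above already separated for these 7. Their passing as higher is therefore no separate result. No member passed as lower in that fit, against 7.38% of genes. With only complete 1 left out, 5 members had an unadjusted edgeR p under 0.05, against 1141 of 13282 genes tested. Of the members 0 passed, the smallest adjusted p among them being 0.572. With only deprived 2 left out, 0 members had an unadjusted p under 0.05, against 1037 of 13296 genes. The smallest adjusted p among the members was then 0.614. Both libraries were singled out by their values, so these counts too do not test the members against all genes.

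Ratios of gene pairs within a library, which do not depend on scaling between libraries, were compared by label with an exact two-sided permutation test over the 6 libraries, whose smallest possible p is 0.10. The log2 ratio of SLC7A11 over SLC3A2, the chains of 1 exchanger, was 0.29, -1.10 and 0.32 in deprived 1, 2 and 3, against 0.47, -1.01 and -1.14 in complete 1, 2 and 3. That of CHAC1 over CHAC2 was 2.78, 0.33 and 2.79 in the deprived libraries and 2.71, -0.02 and 0.31 in the complete ones. The ratio of GCLM over GCLC ran the other way, with 1.17, 1.69 and 1.21 in the deprived libraries and 1.13, 1.74 and 2.15 in the complete ones. Each of these ratios put deprived 2 beside complete 2 and complete 3, and complete 1 beside the other deprived libraries. The ratio of CBS over CTH was -0.83, -1.15 and -0.70 in the deprived libraries and -0.76, -0.99 and -1.85 in the complete ones, the last on 9 counts of CBS. Deprived minus complete, the mean log2 ratio differed by 0.40, 0.97, -0.32 and 0.31 in the order given, with exact p of 0.90, 0.20, 0.50 and 0.60 and values adjusted over the 4 ratios from 0.80 to 0.90. The differences ran, with 1 library left out, from 0.11 to 0.91, from 0.46 to 1.83, from -0.59 to -0.08 and from -0.02 to 0.53, with the value farthest from 0 in each without complete 1. Leaving out deprived 2 and complete 1 together gave 1.38, 2.64, -0.75 and 0.65.

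**Figure D3:**
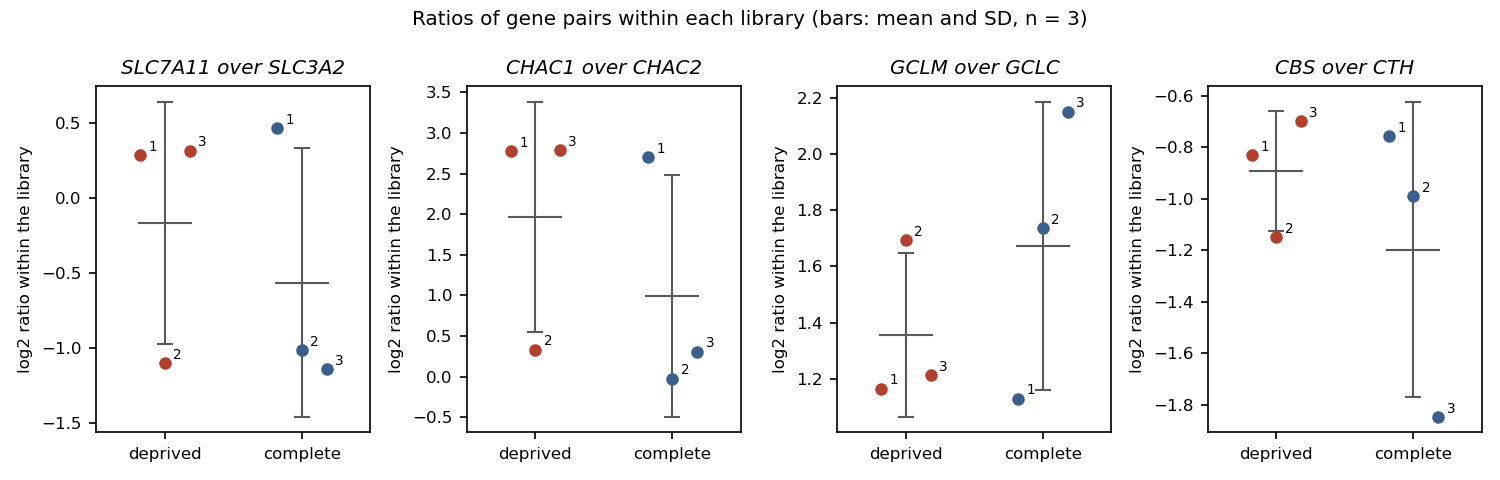
Log2 ratio of 2 genes within each library (points, numbered as labelled), deprived left and complete right in each panel, with mean and SD as bars (n = 3). In the first 2 panels deprived 2 sits at -1.10 and 0.33, among complete 2 and complete 3, and complete 1 sits at 0.47 and 2.71, among deprived 1 and deprived 3.

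Profiles most like those of 4 members were sought among 9558 other genes with a mean of at least 10 CPM, by the root mean square difference of log2 CPM after each gene was centred on its 6-library mean. Closest to CHAC1 were SLC7A5, a large neutral amino acid carrier, at 0.12, SLC7A11-AS1 at 0.13 and UNC5B, a netrin receptor, at 0.13. SLC7A5 measured 75.1, 13.6 and 107 CPM in deprived 1, 2 and 3, against 94.7, 15.2 and 16.9 CPM in complete 1, 2 and 3. Closest to SLC7A11 were NUPR1, a small stress-induced nuclear protein, at 0.11, SLC7A11-AS1 at 0.18 and UNC5B at 0.20. Closest to CBS were the same genes, NUPR1 at 0.39, UNC5B at 0.50 and SLC7A11-AS1 at 0.51, so no gene matched the range of CBS closely. Reads of SLC7A11-AS1 and SLC7A11 may not have been kept apart, so SLC7A11-AS1 cannot be taken as an independent neighbour here. GCLM, which varied little, had close neighbours in ELOF1, FNDC3B and ASAP2, at 0.03 each, as any gene of small range would.

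Regulators and neighbouring enzymes were read from 10 lists with 110 genes, of which 88 were tested. In edgeR 0 of these passed by label. Without deprived 2 and complete 1, 25 passed as higher and 3 as lower in deprived medium, of 89 tested, against 8.57% and 7.38% of all genes. Of the 88 genes, 36 had their 3 highest values in deprived 1, deprived 3 and complete 1, against 18.3% of all genes. For 5 the 3 lowest were there, against 17.7%. The libraries were left out for their values, and the lists were chosen with earlier results known. Such counts therefore do not test the lists. The counts of single lists given next are to be read against 8.57% and 7.38%. A count of 1 in 6 to 8 genes lies near those shares. All 6 libraries gave 61 positive and 27 negative log2 fold changes, with a median of 0.07 (0.04 to 0.15 with 1 library left out), against 6662 positive and 6406 negative over all genes. Deprived libraries lay above all complete ones for 3 of the 88 genes and below for 2, shares near the 3.48% and 3.49% of all genes tested, so these counts do not set the lists apart. The 5 genes are named after their values were seen. Above were SLC25A39, a mitochondrial glutathione importer (log2 fold change 0.17), GSTT1, a glutathione transferase (0.35), and SEPSECS, which makes selenocysteine on its tRNA (0.61). Below were PRDX2, a peroxiredoxin (-0.13), and ME2, a mitochondrial malic enzyme (-0.11).

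Of 11 transcription regulators, 9 were positive by label with a median of 0.16 (0.03 to 0.37 with 1 library left out, the highest without complete 1), 0 passed, and 7 passed as higher without deprived 2 and complete 1. ATF4 measured 409, 162 and 477 CPM in deprived 1, 2 and 3, against 414, 174 and 154 CPM in complete 1, 2 and 3. NFE2L2 measured 173, 141 and 182 CPM in deprived 1, 2 and 3, against 177, 134 and 132 CPM in complete 1, 2 and 3. Both were high in the libraries where SLC7A11 was high, with log2 fold changes without those 2 libraries of 1.43 ± 0.08 (SE) for ATF4 and 0.41 ± 0.08 (SE) for NFE2L2. CEBPB, a bZIP factor that can pair with ATF4, had 0.14 ± 0.18 (SE) by label and 0.50 ± 0.08 (SE) without them. PHGDH, the first enzyme of serine synthesis, had 0.62 ± 0.52 (SE) by label and 1.80 ± 0.08 (SE) without them.

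Cystine, cysteine and glutathione carriers were positive by label in 6 of 8 tested genes, with a median of 0.16 (0.07 to 0.23 with 1 library left out). Leaving out both libraries, 2 passed as higher, one of them SLC3A2, and 1 as lower. CTNS, the lysosomal cystine exporter, stayed at 106 to 128 CPM with a difference by label of -0.05 on the log2 scale. Cysteine breakdown and sulfide oxidation was positive in 4 of 8 with a median of -0.0017 (-0.05 to 0.06 with 1 library left out), and 1 gene passed without those libraries, GOT1, an aspartate aminotransferase, at 0.65 ± 0.09 (SE). ETHE1, a mitochondrial persulfide dioxygenase, ranged from 72.4 to 85.3 CPM and had 0.02 ± 0.10 (SE) in that fit.

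Enzymes of the gamma-glutamyl cycle and glutathione peptidases were positive by label in 4 of 6 with a median of 0.05 (0.01 to 0.10 with 1 library left out). GGCT, the cyclotransferase that acts on gamma-glutamyl amino acids, measured 68.3, 95.1 and 66.6 CPM in deprived 1, 2 and 3, against 78.4, 84.9 and 83.9 CPM in complete 1, 2 and 3. Its 3 lowest values were in the libraries where CHAC1 was high, and it passed as lower without deprived 2 and complete 1, at -0.32 ± 0.10 (SE) with an edgeR adjusted p of 0.0165. CNDP2, a cytosolic dipeptidase, ranged from 56.6 to 67.8 CPM with 0.13 ± 0.11 (SE) in that fit.

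Among the consumers of glutathione, 7 of 9 other peroxidases, glutaredoxins and glyoxalases and 10 of 13 glutathione transferases were positive by label, with medians of 0.05 and 0.12. These ran, with 1 library left out, from 0.0034, without deprived 1, to 0.10 and from 0.04 to 0.18. With those libraries left out, 2 of 9 and 4 of 14 passed as higher and 0 as lower. GPX8, an endoplasmic reticulum peroxidase, had 0.34 ± 0.08 (SE) in that fit, whereas GPX1, the main cytosolic glutathione peroxidase, had 0.10 ± 0.08 (SE). MGST1, a microsomal transferase, had 0.40 ± 0.07 (SE) and GSTO1 0.26 ± 0.07 (SE). Transferases of the GSTM and GSTT families have close relatives, so their counts are uncertain.

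The thioredoxin system, which runs beside glutathione, was positive in 8 of 12 with a median of 0.04 (-0.01, without complete 2, to 0.12, without complete 1), and 4 passed as higher and 1 as lower without those libraries. TXN, thioredoxin itself, had 0.47 ± 0.07 (SE) and PRDX1, a peroxiredoxin, 0.10 ± 0.07 (SE) in that fit. Enzymes that supply NADPH were positive in 6 of 7 with a median of 0.08 (0.02 to 0.43 with 1 library left out, the highest without complete 1), and 3 of 7 passed as higher. PGD, of the pentose phosphate pathway, measured 118, 64.4 and 109 CPM in deprived 1, 2 and 3, against 116, 60.4 and 57.6 CPM in complete 1, 2 and 3. IDH1, cytosolic isocitrate dehydrogenase, measured 207, 104 and 234 CPM in deprived 1, 2 and 3, against 219, 104 and 98.3 CPM in complete 1, 2 and 3. Both were high where SLC7A11 was high, while GSR, which consumes NADPH, followed over a narrower range.

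Genes of selenoprotein synthesis, on which GPX4 depends, were positive in 4 of 7 with a median of 0.0073 (-0.06 to 0.16 with 1 library left out, the highest without complete 1), and 1 of 7 passed as higher without deprived 2 and complete 1. That gene was SEPHS2, which makes the selenium donor, at 0.47 ± 0.10 (SE), whereas its paralog SEPHS1 had -0.20 ± 0.11 (SE). Genes of lipid peroxidation and ferroptosis, the cell death that GPX4 prevents, were positive in 3 of 7 with a median of -0.02 (-0.06 to 0.04 with 1 library left out), and 1 passed as higher in that fit. ACSL4, which activates polyunsaturated fatty acids, stayed at 150 to 164 CPM, and VKORC1L1, a vitamin K reductase, at 57.6 to 66.4 CPM.

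**Figure D4:**
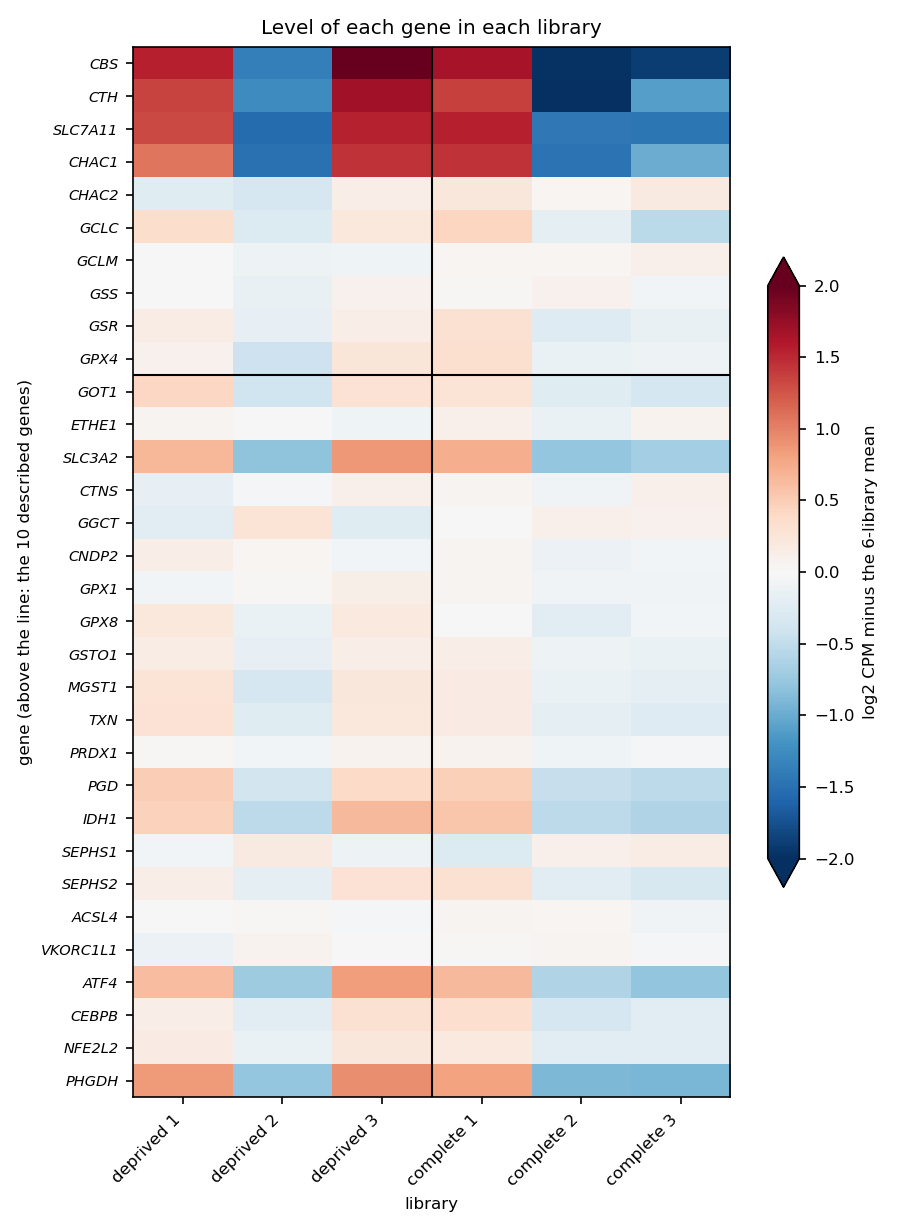
Log2 CPM of each gene minus its 6-library mean (colour, red above and blue below) in the deprived libraries (left of the vertical line) and complete libraries (right), for the 10 described genes above the horizontal line and named regulators and pathway genes under it. CBS, CTH, SLC7A11, CHAC1, SLC3A2, ATF4, PHGDH, PGD and IDH1 are red in deprived 1, deprived 3 and complete 1, and GCLM, GSS, CTNS and ACSL4 are pale throughout.

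Leukocyte markers summed to 0.286 to 0.704 CPM in the deprived and 0.276 to 0.596 CPM in the complete libraries, with CD3E and AIF1 at 0 counts. Endothelial markers summed to 1.83 to 3.43 CPM in the deprived and 0.745 to 2.07 CPM in the complete libraries. Oligodendrocyte markers summed to 6.93 to 9.14 CPM in the deprived and 5.24 to 6.86 CPM in the complete libraries, nearly all of it MBP. Neuronal markers were present, with sums of 62.4, 74.0 and 68.7 CPM in deprived 1, 2 and 3, against 56.8, 74.4 and 74.7 CPM in complete 1, 2 and 3. SNAP25 and SYT1 made up nearly all of these sums, and RBFOX3 was at most 0.447 CPM. The neuronal sum was lower in the libraries where SLC7A11 was high, through SNAP25, since SYT1 was highest in deprived 3 at 37.0 CPM. Its part in the results was not tested.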

How the data were processed

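Each QuantSeq 3′ library started from 500 ng of RNA, per the labels' protocols. The authors deposited whole-number counts by gene symbol, unnormalized. The submitters' processing notes name Bowtie2. The sources used here do not give its version, the counting program, genome build, annotation or strand setting, so no gene coordinates are given apart from RefSeq promoter windows (GRCh38.p14). Groups and replicate numbers came from the sample titles, and 0 columns were left unused. One listed gene, SQOR, stood under its older symbol.

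Deprived and complete libraries were compared over the whole table with edgeR 4.0.16 (R 4.3.3), with filterByExpr at a minimum count of 10, TMM scaling, the quasi-likelihood test of deprived against complete and Benjamini-Hochberg adjustment over 13068 rows. All 10 members passed the filter. CPM values are TMM-scaled, except markers, which use library totals, and log2 CPM had a prior count of 3. The procedure was tested on simulated data in which changes followed the labels. That simulation held no library sets crossing the labels, as these data do, so it does not cover them. A count of 3 corresponded to 0.414 to 0.480 CPM, counting error only.

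The members, the 10 lists and the named genes were chosen with earlier results of these data known. Named were the members, ATF4, NFE2L2, SLC3A2, PHGDH, the 2 genes of highest mean CPM in each list, and the 3 nearest profiles of CHAC1, SLC7A11, GCLM and CBS. Alternatives were other scalings and filters, DESeq2 1.42.0, limma-voom (limma 3.58.1), the replicate number as a block, shared symbols summed and each library left out. Leaving out deprived 2 and complete 1 together was added with their values known. Ratios used exact enumeration in Python 3.11.15, and figures Matplotlib 3.10.9. Outliers were not tested for, with 3 libraries a group.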

Additional observations from a re-analysis of the deposited data

How the results depend on the processing

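With all libraries kept, the 90 member values of 9 planned settings (other scalings, filters, tools, the replicate number as a block, shared symbols summed) had the direction reported, and 0 members passed in each. Summing shared symbols changed 0 member calls, as no member symbol stood on more than 1 row. The block gave 0 calls among all genes, with a median over the members of 0.13, against 0.12 without it. At an unadjusted edgeR p under 0.05 it gave 429 genes and 2 members, against 247 and 0 without it. Nothing in the labels says that equal numbers mark pairs, and deviations of same-numbered libraries correlated at 0.384, 0.381 and -0.281 across genes, with each library not always closest to its own number. With 1 library left out, 0 genes were called in each fit, while GCLC ran from -0.0315 to 0.477, GSR from -0.0463 to 0.250, GSS from -0.0942 to 0.0262 and GPX4 from -0.184 to 0.120, so these 4 changed sign, and the members' median ran from -0.0156 to 0.364. Without deprived 2 and complete 1, chosen by their values, 2096 genes, 7 members and 28 list genes were called, GSS stood at 0.0292 and GPX4 at 0.279, both positive, and the log2 ratio differences were 1.38 for SLC7A11 over SLC3A2 and 2.64 for CHAC1 over CHAC2. For the changes of sign the cause was not tested. With 1 library left out the difference of CBS over CTH reached -0.0195, without complete 3, and the cause was not tested. A prior count of 0.5 moved the 4 ratio differences by less than the spread between libraries. The medians of the 10 lists moved by less than that spread under library totals alone. With 1 library left out, 3 list medians moved by more: NADPH supply to 0.435 and selenoprotein synthesis to 0.155, both without complete 1, and other peroxidases and glutaredoxins to 0.00336, without deprived 1. Medians changed sign for the thioredoxin system (-0.0126 without complete 2), cysteine breakdown (0.0642 without deprived 2), selenoprotein synthesis (-0.0558 without deprived 2) and ferroptosis (0.0359 without complete 1), and the cause was not tested. Depth limits CBS in its low libraries, at 9 to 15 counts, and CHAC2.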

Other observations

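The columns of the deposited table stand in the order deprived 1, complete 1, deprived 3, deprived 2, complete 2, complete 3. No condition was taken from that order, and why deprived 2 and complete 1 resemble the opposite label was not tested.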
